A study of Mus musculus with 22 samples.

Results

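Aquaporins are membrane channels that let water, and in some members glycerol or other small solutes, cross the cell membrane. Of the genes in the 3 deposited comparison tables, 46813 were in all 3, and 5 of them were chosen by symbol as the aquaporins of the cardiomyocyte: Aqp1, Aqp4, Aqp7, Aqp8 and Aqp11. Aqp8 was picked because its level differs between groups, so its differences between groups are described here without any test. RNA of ventricular cardiomyocytes, released from the heart by perfusion on a Langendorff system, was sequenced from 22 male mice of 6 groups, each library being 1 mouse, and 21 were used. All 5 members were counted in all 21 libraries used here, and all 5 passed the filter on low counts in each comparison.

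Cre recombinase was driven by the alpha-myosin heavy chain promoter, which is active in cardiac muscle. CASK controls (3 mice) carried MHC-Cre alone, CASK KO mice (3) MHC-Cre with CASK fl/fl, SAP97 controls (3) SAP97 fl/fl without Cre, and SAP97 KO mice (3) MHC-Cre with SAP97 fl/fl. These 12 mice were on mixed backgrounds, at 10.1 to 13.0 weeks of age. One table of the study writes the SAP97 controls as carrying Cre, whereas the labels and its methods give them without it. MDX mice (4; MDX -/-), which lack full-length dystrophin in every tissue and not in the heart alone, were 10.9 to 17.7 weeks old, and wild type MDX controls (5) were 10.9 to 14.7 weeks old. MDX replicates 2 to 4 were on C57Bl/6Ros and 4 controls on C57Bl/6 or C57Bl/6J, while replicate 5 of either group came from a mixed line backcrossed 3 times. Since Cre, strain and line differ between the control groups, their parts in a difference between lines cannot be told apart, and SAP97 KO mice differ from their controls in Cre as well as in SAP97. MDX replicates 2 to 4 differ in strain as well as in dystrophin from the 4 controls on C57Bl/6 or C57Bl/6J. In the MDX comparison, strain and dystrophin thus cannot be told apart for these mice. The paper holds a batch effect likely for the variation among MDX controls, since sequencing was done in 2 rounds. The labels do not say which mice were in which round, so no fit took it into account.

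The known roles of the members differ. AQP1 is the water channel of capillary endothelium and red blood cells and is also present in cardiac muscle. AQP4 is the water channel of astrocytes and of the skeletal muscle membrane, where it is tied to the dystrophin complex. AQP7 also passes glycerol, a fuel that the heart takes up and fat tissue releases. AQP8 passes water, and also ammonia and hydrogen peroxide, and is best known from liver, pancreas and gut. AQP11 is a distant member found on membranes inside the cell, and mice without it develop cystic kidneys.

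Aqp4 (ENSMUSG00000024411) is on the minus strand of chromosome 18 and is overlapped by an annotated antisense gene, AC133525.2. The strand setting of the counting is not given in the sources used here, so reads of Aqp4 and of that antisense gene cannot be told apart.

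In the GRCm38 build, Aqp8 (ENSMUSG00000030762) lies on the plus strand at chr7:123462291-123468004, between Lcmt1, which ends 31933 bases before it, and Zkscan2, 7380 bases after it. Aqp11 (ENSMUSG00000042797) is on the same chromosome, on the minus strand at chr7:97724006-97738289. Aqp1 (ENSMUSG00000004655) is on the plus strand at chr6:55336432-55348555, and Aqp7 (ENSMUSG00000028427) on the minus strand at chr4:41033074-41048139, 44583 bases from Aqp3. None of these 4 genes is overlapped by another annotated gene. The 250 bases before the RefSeq start of Aqp8 (GRCm38.p6, chr7:123462044-123462293, plus strand) are shown because Aqp8 is the member whose level differed most between groups. Capitals mark the E-boxes (CANNTG), the letters bound by basic helix-loop-helix factors and by the clock factors.

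Aqp8 upstream region: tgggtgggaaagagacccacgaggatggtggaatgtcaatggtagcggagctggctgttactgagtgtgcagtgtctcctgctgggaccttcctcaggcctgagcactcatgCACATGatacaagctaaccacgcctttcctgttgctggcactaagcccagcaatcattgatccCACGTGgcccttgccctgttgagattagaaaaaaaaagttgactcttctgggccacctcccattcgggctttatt

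The upstream region of Aqp8 held 2 E-boxes, which start 138 and 75 bases before the RefSeq start. The second has the palindromic letters CACGTG. Of 32851 mouse upstream regions of the same length, 66.2% held at least 1 CANNTG and 6.02% held CACGTG, on either strand. The regions of Aqp1 and Aqp11 held 1 E-box each and those of the 2 Aqp7 starts 2 each, and none of these was CACGTG, which is itself a form of CANNTG. Letters of a T-box core (TCACACC, in 3.33% of all regions), of a TATA box (TATAAA, in 12.4%), of a GATA site (AGATAA, in 9.99%), of an osmotic response core (TGGAAA, in 18.6%) and of the PPAR direct repeat with 1 base between its parts (in 0.0335%) were not found in this window of Aqp8 on either strand. The regions before the 2 Aqp7 starts overlap and share a T-box core, and 1 of them also held a GATA site and the osmotic response core. These matches describe letters only.

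Levels between genes were compared as TPM, in which the counts of a gene are divided by its summed exon length and each library is scaled to the same total. Aqp1 was the most abundant aquaporin in every library. Over the 21 libraries its level was 70.7 ± 27.6 TPM (mean ± SD), and it made up 76.7 to 90.7% of the summed TPM of the 5 members, depending on the group. Aqp8 followed with 6.25 ± 5.52 TPM, Aqp7 with 4.42 ± 2.06 TPM, Aqp4 with 2.50 ± 0.856 TPM and Aqp11 with 0.161 ± 0.0682 TPM. The other 7 genes of the family were close to absent. Aqp12 and Mip, the water channel of the eye lens, had 0 counts in all 21 libraries. Aqp2 had 30 counts over all libraries together, Aqp3 6, Aqp5 16, Aqp6 36 and Aqp9 6.

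Aqp1 was first and Aqp11 last in each of the 6 groups, and the place of Aqp8 in between changed with the group. In CASK controls Aqp8 was second, at 16.3 ± 6.31 TPM (n = 3), above Aqp7 in 3 of 3 libraries with ranges that did not overlap. In CASK KO it was second at 7.94 ± 3.93 TPM, and in SAP97 KO at 7.58 ± 3.30 TPM, also above Aqp7 in 3 of 3 libraries, but in both groups the ranges over mice overlapped. In SAP97 controls Aqp8 (4.16 ± 0.133 TPM) and Aqp7 (3.72 ± 1.38 TPM) were neighbours that did not differ beyond their spread. In MDX controls the order was Aqp7, Aqp8 and Aqp4, at 4.49, 3.59 and 2.17 TPM, with overlapping ranges between neighbours. In MDX mice Aqp8 came after Aqp4 and only Aqp11 was lower. There Aqp4 was at 3.22 ± 0.335 TPM and Aqp8 at 1.32 ± 0.683 TPM (n = 4), with ranges that did not overlap. Aqp4 was more abundant than Aqp11 in every group, by 9.17 to 17.2 times where the 2 were neighbours.

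**Figure D1:**
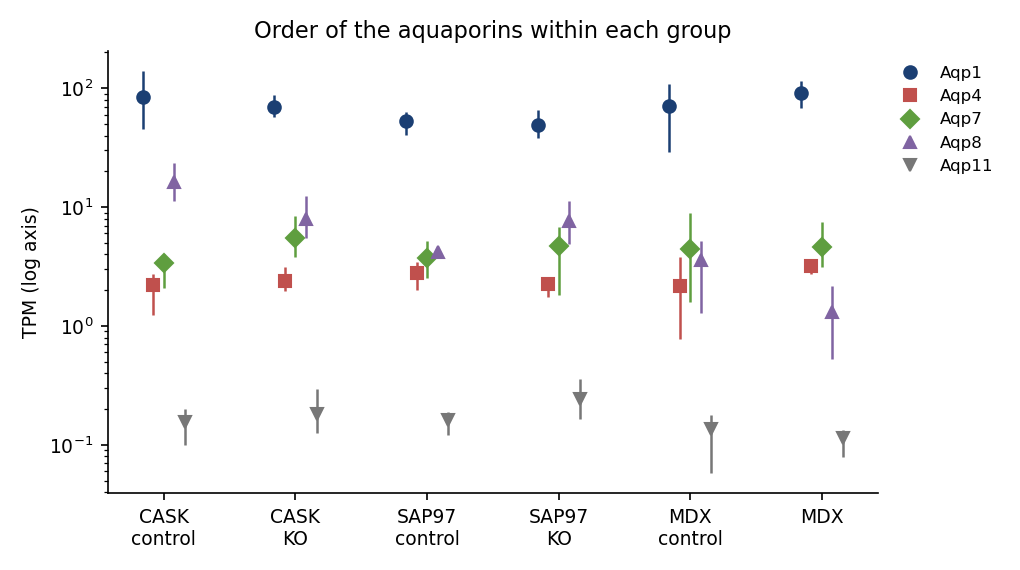
Level of the 5 aquaporins in TPM on a log axis, by group; symbols are group means and vertical lines run from the lowest to the highest mouse. Aqp1 stays on top and Aqp11 at the bottom, while Aqp8 moves from 16.3 TPM in CASK controls to 1.32 TPM in MDX mice.

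Levels between mice were compared as CPM, in which each count is divided by the total of its library after scaling by the trimmed mean of M-values (TMM), with no account of gene length. The libraries held 24253610 to 42159185 counts in genes, of which 23.6 to 54.4% were mitochondrial. The 8 cardiomyocyte markers summed to 63084 to 122949 CPM in single libraries, against 126 to 423 CPM for the 12 endothelial, 80.2 to 308 CPM for the 7 fibroblast and at most 1.98 CPM for the 6 adipocyte markers, so the defining markers of the labelled cell type were present and those of fat cells were near 0. Of the targeted genes, Dlg1, which encodes SAP97, fell in SAP97 KO from 59.5 ± 5.38 to 11.9 ± 1.29 CPM (log2 fold change -2.29, SE 0.14, edgeR adjusted p = 9.34e-04). Leaving out 1 library in turn moved that adjusted p between 0.00147 and 0.0153, past the threshold at its upper end. Cask was at 8.96 ± 0.594 CPM in CASK controls and 1.47 ± 0.875 CPM in CASK KO. Dmd was at 293 ± 35.7 CPM in MDX controls and 102 ± 24.2 CPM in MDX mice. Neither reached the threshold by edgeR fitted within its own line (adjusted p = 0.148 and 0.0680). DESeq2 called both, with adjusted p-values of 4.88e-08 and 8.29e-11. In 1 edgeR model of all 6 groups, Cask was called in CASK KO (adjusted p = 2.50e-04). Both genes were called there for a difference among the 6 groups (4.23e-04 and 1.54e-07). That test takes in all groups and does not set MDX mice against their controls. The lowest mean of Dmd was in CASK controls (46.5 ± 4.51 CPM).

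Aqp8 had the widest range of the 5 members, from 0.492 CPM in MDX replicate 2 to 14.98 CPM in CASK control replicate 1, a ratio of 30.4. The same ratio was 3.18 for Aqp4, 3.26 for Aqp1 and 3.68 for Aqp7, and for Aqp11 it was 4.003. In CASK controls Aqp8 was at 14.98, 13.5 and 12.3 CPM (648, 462 and 461 counts), the 3 highest CPM of the series. In CASK KO it was at 7.96, 6.25 and 6.02 CPM (314, 241 and 227 counts). In CPM all 3 CASK KO mice thus lay below all 3 controls, and the mean of 6.74 ± 1.06 CPM was 49.6% of the control mean of 13.6 ± 1.35 CPM. Knockout and control did not overlap in this direction for 7.89% of all genes, and nothing is read from this for Aqp8, whose level served to choose it. In TPM, which has no TMM scaling and was added as a comparison after seeing the data, the groups overlapped, since CASK KO replicate 1 (12.5 TPM) lay above CASK control replicate 3 (11.3 TPM), and the ratio of means was 0.486.

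In SAP97 controls Aqp8 was at 4.37, 3.57 and 3.96 CPM (142, 112 and 122 counts). In SAP97 KO it was at 10.5, 4.71 and 5.28 CPM (331, 136 and 186 counts). All 3 SAP97 KO mice lay above all 3 of their controls, with a ratio of means of 1.72 (6.84 ± 3.21 against 3.97 ± 0.397 CPM). The groups did not overlap, with the knockout higher, for 6.44% of all genes. In TPM they did not overlap either, with a ratio of 1.82. The difference leaned on replicate 1 of the knockout, and the fitted log2 fold change of 0.82 was 0.38 without it.

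Wild type MDX controls had 3.48, 4.68, 1.90, 3.12 and 4.30 CPM of Aqp8 (119, 157, 34, 101 and 100 counts). MDX replicates 2 to 5 had 0.492, 1.08, 1.73 and 1.91 CPM (14, 32, 59 and 54 counts). In CPM the groups touched at 1 point only, where MDX replicate 5, a backcrossed mouse, lay just above control replicate 3, the library with the highest mitochondrial share (54.4%). In TPM both MDX replicate 5 (1.42 TPM) and replicate 4 (2.18 TPM) lay above that control (1.28 TPM). For 0.657% of all genes the MDX mice lay entirely below their controls, and Aqp8 was not among them. The mean of 1.30 ± 0.646 CPM in MDX mice was 37.3% of the 3.49 ± 1.09 CPM of controls. Between the 2 backcrossed mice alone, Aqp8 was at 4.30 CPM in the control and 1.91 CPM in the MDX mouse. The fitted log2 fold change was -1.42 with all mice, -1.60 without the backcrossed pair and -2.09 when the oldest MDX mouse, replicate 4 at 17.7 weeks, was left out as well. This last setting was chosen after seeing the data.

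**Figure D2:**
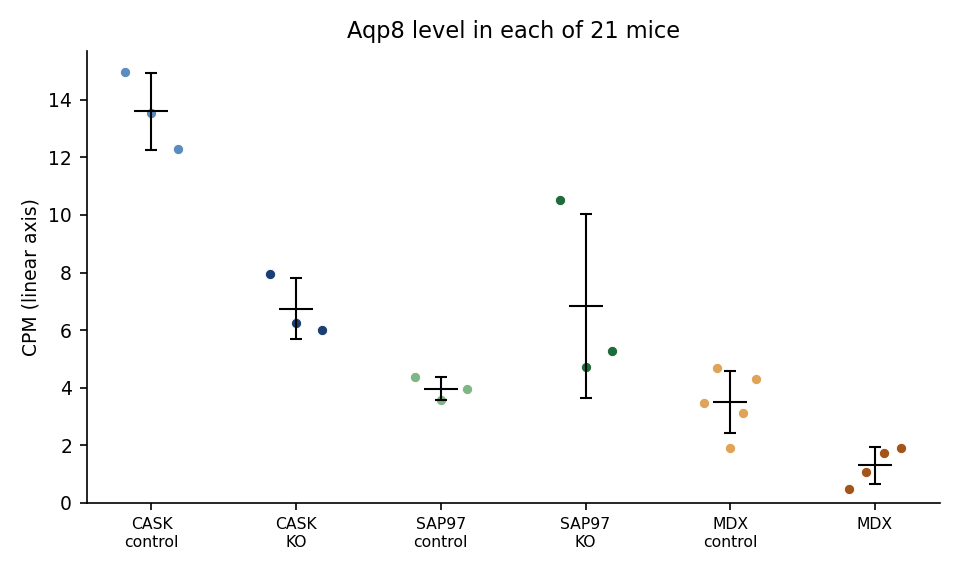
Aqp8 level in CPM (linear axis) in each of the 21 mice; points are single mice, horizontal bars group means and whiskers 1 SD. CASK controls lie between 12.3 and 14.98 CPM and MDX mice between 0.492 and 1.91 CPM.

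For Aqp8, CASK controls lay apart from both other control groups. Its mean in CASK controls was 13.6 CPM, against 3.97 CPM in SAP97 controls and 3.49 CPM in wild type MDX controls. SAP97 controls (3.57 to 4.37 CPM) lay within the range of MDX controls (1.90 to 4.68 CPM). The 9 libraries of mice with Cre had 4.71 to 14.98 CPM, and the 12 libraries without Cre 0.492 to 4.68 CPM, so these ranges lay side by side with a narrow gap. Such a separation, Cre libraries higher, was found for 0.147% of 15675 genes, and nothing is read from it for Aqp8, which was picked for its level between groups. In TPM the ranges overlapped, since SAP97 KO replicate 2 (4.94 TPM) lay below MDX control replicate 2 (5.15 TPM). The other members did not separate by Cre in CPM: no library with Cre was above all those without it for Aqp1 or Aqp4, and 1 of 9 was for Aqp7 and for Aqp11. Differences between groups took up 50.9% (Aqp1), 36.6% (Aqp4), 33.8% (Aqp11) and 18.8% (Aqp7) of the variance on the log2(CPM + 0.5) scale, and the median over the 15675 genes tested in the model of the 6 groups was 28.5%. The 87.6% of Aqp8 restates how that gene was picked. Within groups the pooled SD of Aqp8 was 0.42 in log2 units, against a median of 0.29 over all genes.

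Markers of other cells differed between these groups as well. The 4 atrial markers summed to 219 to 522 CPM in CASK controls and to 29.3 to 67.2 CPM in CASK KO, 42.3 to 61.6 CPM in SAP97 controls, 69.6 to 79.9 CPM in SAP97 KO, 33.9 to 80.1 CPM in MDX controls and 44.2 to 159 CPM in MDX mice. The high sum of CASK controls was made up by Nppa, a natriuretic peptide gene that ventricles also express under stress, with a group mean of 315 CPM there and 10.5 to 44.5 CPM in the other groups. Myl4, Myl7 and Sln, the other 3, had their highest means in MDX mice (26.8, 41.0 and 8.93 CPM), the group with the lowest Aqp8, and were at 11.1, 11.7 and 2.26 CPM in CASK controls. None of the 4 was at 0 in any library. The 6 mural markers summed to 227 to 553 CPM in CASK controls and to 134 to 382 CPM in the other groups. Their part in the level of Aqp8 was not tested. In bulk RNA, fewer cells of a type and less RNA per cell cannot be told apart.

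The genes next to Aqp8 on the chromosome had other patterns. Lcmt1, which encodes a methyltransferase of protein phosphatase 2A, had group means between 7.88 and 9.62 CPM, and its difference among the 6 groups did not reach the threshold (edgeR adjusted p = 0.852). Zkscan2, a zinc finger gene, was at 0.0851 to 0.420 CPM. Over all 21 libraries, the 3 genes whose level was most like that of Aqp8, among 11819 genes compared by Pearson's r of log2(CPM + 0.5), were Rrp12 (r = 0.92), a gene of ribosome assembly, Mal (r = 0.92), a gene of membrane rafts, and Lrp11 (r = 0.90), a member of the LDL receptor-related genes. Mal ran from 29.8 CPM in CASK controls to 11.7 CPM in MDX mice, and Rrp12 from 42.6 to 17.1 CPM. These correlations are descriptions over libraries that share groups.

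Aqp1, the main aquaporin, overlapped between knockout and control in each line. In CASK controls it was at 149, 109 and 81.3 CPM, and in CASK KO at 92.5, 102 and 117 CPM. The ranges overlapped, and the log2 fold change was -0.10 (SE 0.23, edgeR adjusted p = 0.944). In this comparison 0 of the 4 tested members were called at an adjusted p of 0.01, as were 0.0% of 14963 genes by edgeR, of which 1323 had an unadjusted p under 0.05 (DESeq2 called 116). With the replicate number as a block, 11 genes were called, and the edgeR adjusted p of Aqp1 was 0.925. The labels do not pair the CASK libraries, and this block rests on same-numbered libraries deviating together in these same data.

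Aqp1 in SAP97 controls was at 96.2, 59.4 and 99.3 CPM, and in SAP97 KO at 66.0, 60.6 and 87.4 CPM, again with overlap. The log2 fold change was -0.21 (SE 0.21, edgeR adjusted p = 0.781). None of the 4 tested members was called there, against 0.0204% of 14722 genes, or 3 genes. Aqp1 in MDX controls was at 111, 105, 71.7, 113 and 194 CPM, and in MDX replicates 2 to 5 at 118, 177, 137 and 151 CPM. In CPM all 4 MDX mice were above 4 of the 5 controls, and the fifth control, the backcrossed one, was the highest library. In TPM that control (72.0 TPM) was within the MDX range, MDX replicate 5 (67.9 TPM) was below 4 of the 5 controls, and CASK control replicate 1 (139.9 TPM) was highest. The log2 fold change was 0.30 (SE 0.25, edgeR adjusted p = 1.00). None of the 4 tested members was called in MDX mice either. There 0.0% of 14994 genes were called by edgeR, with 408 at an unadjusted p under 0.05, and 19 were called by DESeq2.

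Across the 6 groups the mean of Aqp1 ran from 71.3 ± 14.2 CPM in SAP97 KO to 146 ± 25.0 CPM in MDX mice. Its test of any difference among groups gave an unadjusted p of 0.0194 and an edgeR adjusted p of 0.186. In that test 1.81% of 15675 genes were called, and none of the 4 members. Without the filter on low counts the adjusted p of Aqp1 was 0.00740, which passes the threshold. The other alternatives gave adjusted p-values of 0.0664 to 0.362, of which DESeq2 gave 0.0710. The lines also differed in the 12 endothelial markers, whose sum was 126 to 254 CPM in the 6 libraries of the SAP97 line, 176 to 325 CPM in those of the CASK line and 220 to 423 CPM in those of the MDX line. The 8 erythroid markers summed to 1.43 to 40.7 CPM. The part of either cell type in the level of Aqp1 between groups was not tested. Genes most like Aqp1 over the 21 libraries were Cdc42ep4 (r = 0.93), an effector of CDC42, S100a10 (r = 0.92), a partner of annexin A2, and Tpm4 (r = 0.92), a non-muscle tropomyosin.

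Aqp4 had a higher mean in MDX mice, without reaching the threshold. MDX controls had 4.62, 9.95, 3.69, 7.63 and 6.58 CPM, and MDX replicates 2 to 5 had 10.2, 10.2, 8.59 and 11.7 CPM. In CPM only control replicate 2 lay within the range of the MDX mice, while in TPM control replicate 4 (3.79 TPM) lay above all of them, and the means were 6.49 ± 2.48 CPM in controls and 10.2 ± 1.28 CPM in MDX mice, a ratio of 1.57. The log2 fold change was 0.64 (SE 0.26) with an unadjusted p of 0.0296 and an edgeR adjusted p of 1.00, and 2.72% of all genes had an unadjusted p under 0.05 in this comparison. The adjusted p stayed between 0.814 and 1.00 in all alternatives tried. Leaving out 1 library in turn kept the log2 fold change between 0.50 and 0.85.

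In the other lines Aqp4 overlapped between knockout and control. It was at 5.503, 3.78 and 9.46 CPM in CASK controls and 6.39, 7.13 and 6.92 CPM in CASK KO (log2 fold change 0.14, SE 0.31, edgeR adjusted p = 0.944). It was at 11.4, 8.14 and 6.07 CPM in SAP97 controls and 7.76, 7.31 and 4.54 CPM in SAP97 KO (-0.36, SE 0.28, edgeR adjusted p = 0.721). The effect in SAP97 KO was lower than that in MDX mice by 1.03 on the log2 scale (SE 0.43), with an unadjusted p of 0.0287 and an edgeR adjusted p of 0.877. Of the 12 such differences of effects tested for the 4 members over the 3 pairs of lines, none was called, against 0.332%, 0.0766% and 0.00638% of 15675 genes for CASK KO and SAP97 KO, CASK KO and MDX, and SAP97 KO and MDX. An unadjusted p under 0.05 was reached by 1 of the 12, where 6.76%, 6.59% and 5.25% of all genes reached it in these pairs. Genes most like Aqp4 over the libraries were Magee1 (r = 0.78), a gene of the dystrobrevin-associated MAGE family, Tmx1 (r = 0.72), a thioredoxin-related gene of the endoplasmic reticulum, and Wls (r = 0.72), which is needed for Wnt secretion.

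Aqp7, the glycerol channel, had a higher mean in CASK KO, without reaching the threshold. CASK controls had 4.55, 6.83 and 4.08 CPM and CASK KO mice 9.58, 7.29 and 8.09 CPM, which do not overlap. In TPM they overlapped, since CASK KO replicate 2 (3.81 TPM) lay below CASK control replicates 1 and 2 (3.98 and 4.01 TPM). In CPM, groups did not overlap, with the knockout higher, for 6.71% of all genes in this comparison. The log2 fold change was 0.72 (SE 0.23), with an unadjusted p of 0.0135 and an edgeR adjusted p of 0.403, and 8.84% of all genes had an unadjusted p under 0.05. The alternatives gave adjusted p-values between 0.169 and 0.797, and the fit with the replicate block 0.195. Endothelial markers also lay apart between these groups: their sum was 176 to 259 CPM in CASK controls and 294 to 325 CPM in CASK KO, 11 of the 12 had a higher level, and their median log2 fold change was 0.35 against 0.01 over all genes. None of them was called. Their part in the difference of Aqp7 between these groups was not tested.

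In SAP97 controls Aqp7 was at 9.53, 4.02 and 5.75 CPM, and in SAP97 KO at 11.4, 3.08 and 8.11 CPM. The log2 fold change of 0.26 (SE 0.44, edgeR adjusted p = 0.869) became -0.15 without SAP97 KO replicate 1. MDX controls had 8.85, 4.83, 9.17, 9.91 and 4.64 CPM and the 4 MDX mice 6.86, 6.48, 10.7 and 7.45 CPM. There the log2 fold change was 0.07 (SE 0.27, edgeR adjusted p = 1.00), and its sign turned without MDX control replicate 2 or 5 or MDX replicate 4, to -0.11 in the last case. The pooled SD of Aqp7 within groups, 0.51 in log2 units, was the largest of the 5 members. Genes most like Aqp7 over the libraries were Chst15 (r = 0.86), a sulfotransferase gene, Cbx2 (r = 0.84), a Polycomb gene, and Cd300lg (r = 0.82), a gene of capillary and venous endothelium.

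Aqp11 was the lowest member, at 13 to 61 counts a library. Its level was 0.640 to 0.967 CPM in CASK controls and 0.804 to 1.12 CPM in CASK KO, 0.682 to 1.14 CPM in SAP97 controls and 0.922 to 1.73 CPM in SAP97 KO. It was 0.432 to 1.56 CPM in MDX controls and 0.557 to 0.743 CPM in MDX mice, so the ranges overlapped in each line. The log2 fold changes were 0.24 (SE 0.31), 0.52 (SE 0.38) and -0.39 (SE 0.39), and none passed the test (edgeR adjusted p = 0.896, 0.714 and 1.00).

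**Figure D3:**
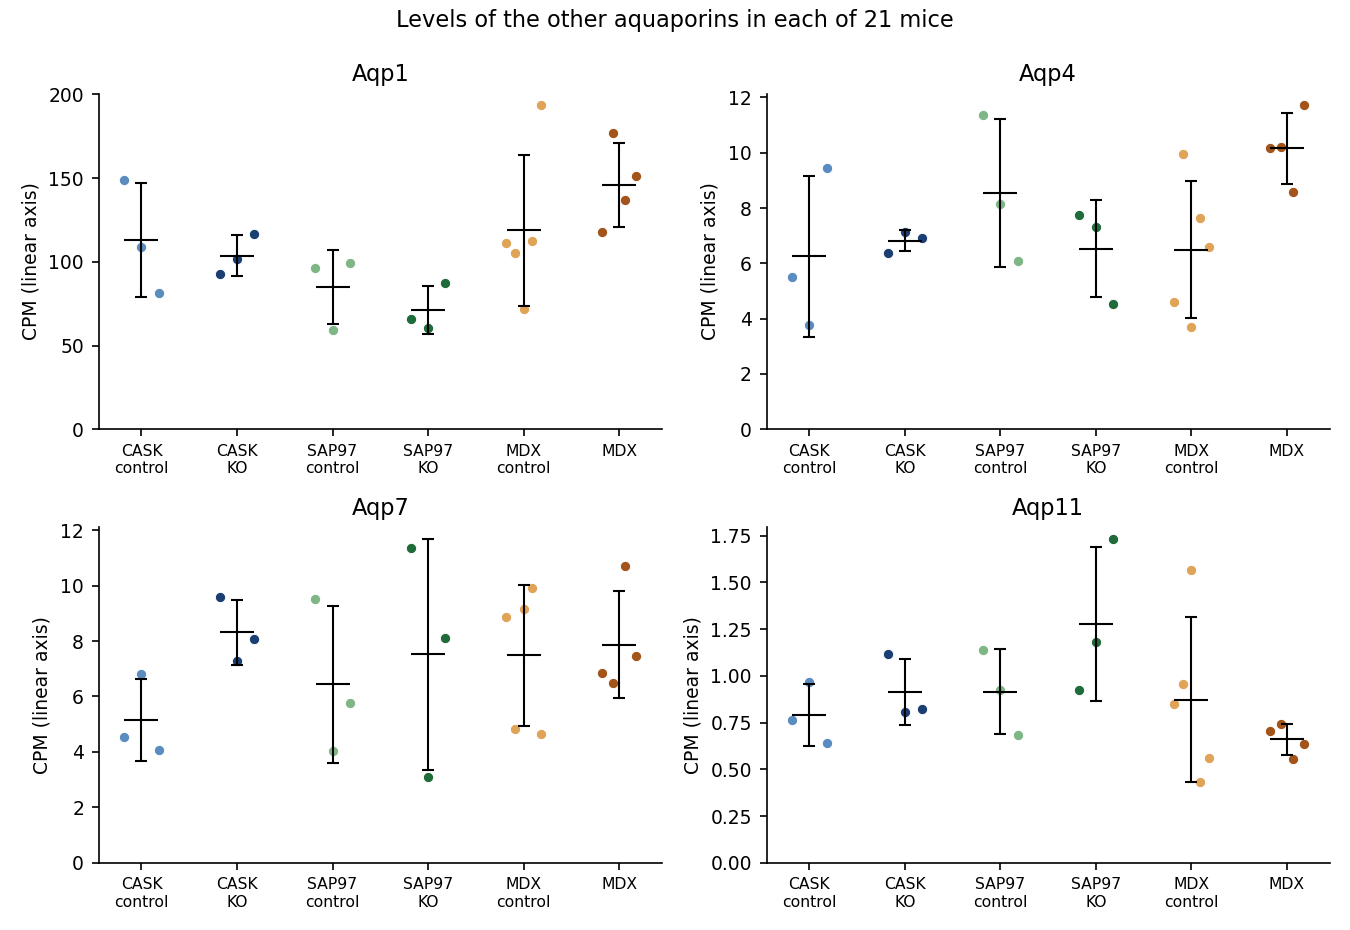
Levels of Aqp1, Aqp4, Aqp7 and Aqp11 in CPM (linear axes) in each of the 21 mice; points are single mice, horizontal bars group means and whiskers 1 SD. Of these panels, knockout and control separate in CPM only for Aqp7 in the CASK line (7.29 to 9.58 against 4.08 to 6.83 CPM), and there they overlap in TPM.

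**Figure D4:**
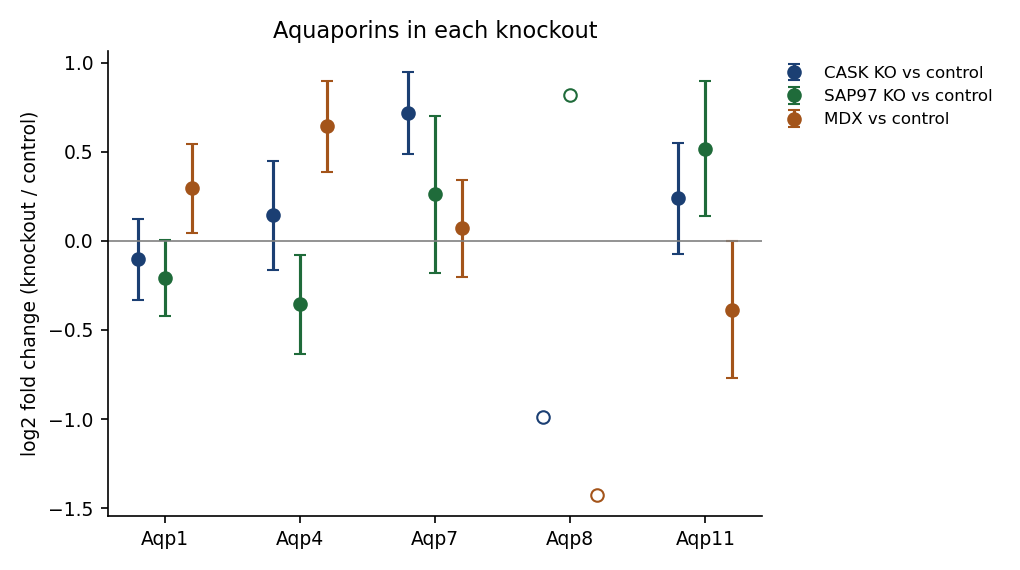
Log2 fold change of each aquaporin, knockout over control, in the 3 comparisons. Bars are 1 SE, and the open circles of Aqp8 carry no error because its differences between groups were not tested. Aqp8 is at -0.99 in CASK KO, 0.82 in SAP97 KO and -1.42 in MDX mice.

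Whether members rise and fall together from mouse to mouse was asked within groups. After each library was set against its group mean on the log2(CPM + 0.5) scale, none of the 10 pairs of members reached an adjusted p of 0.05 over the 15 relations computed. The largest of them in size was Aqp4 with Aqp11, at r = -0.43 (rho = -0.40, permutation p = 0.153 and 0.158, adjusted p = 0.409 and 0.717, n = 21). For Aqp7 and the summed endothelial markers r was 0.76 (permutation p = 0.00435, adjusted 0.0652), which misses 0.05, and rho was 0.75 (permutation p = 0.00246, adjusted 0.0369, n = 21), which passes. Without the 2 libraries whose endothelial sum, set against the group mean, lay farthest from the median of these deviations (MDX control replicate 2 and SAP97 KO replicate 2), r was 0.64. Aqp1 had r = 0.55 with the endothelial markers (permutation p = 0.0379, adjusted 0.284), r = 0.57 without these libraries, and rho = 0.65 (permutation p = 0.01005, adjusted 0.0754). The values for Aqp8, Aqp11 and Aqp4 were r = 0.34, -0.13 and -0.29, with adjusted p-values of 0.509, 0.780 and 0.509 by permutation. No group held the 6 mice that a relation within 1 group would need.

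**Figure D5:**
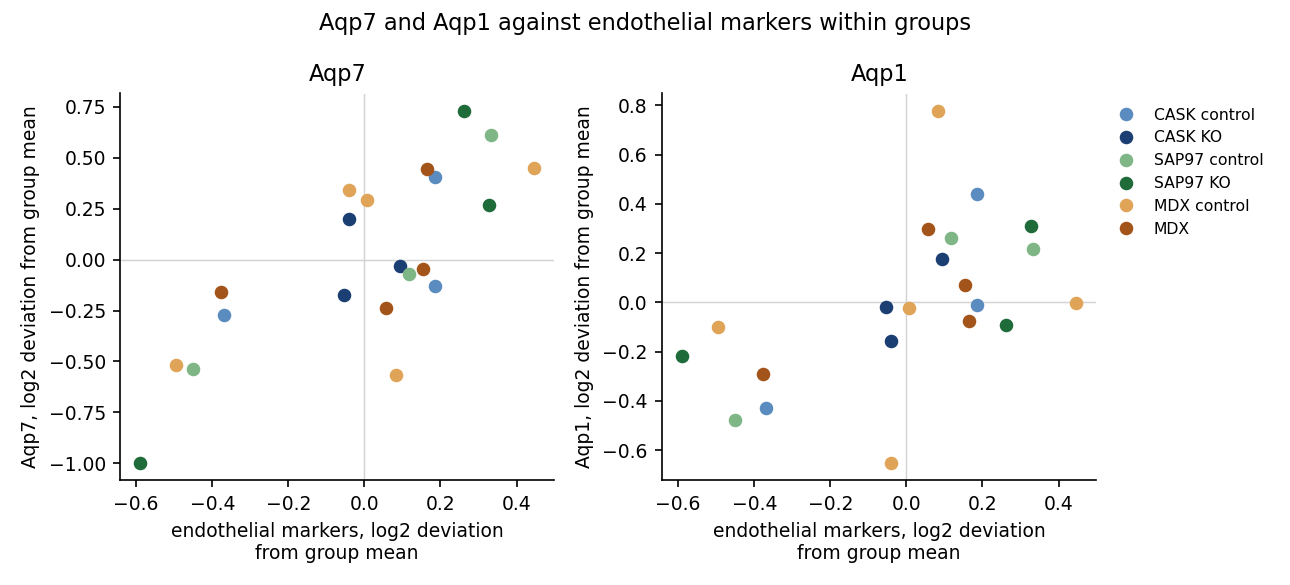
Deviation of Aqp7 (left) and Aqp1 (right) from the group mean against that of the summed endothelial markers, both in log2 units; each point is 1 of 21 mice, coloured by group. Pearson's r is 0.76 for Aqp7 and 0.55 for Aqp1, neither past an adjusted p of 0.05; Spearman's rho passes for Aqp7 alone.

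The dystrophin complex, to which AQP4 is tied in skeletal muscle, was read from 13 genes, all of them tested in each line. None was called between knockout and control by the edgeR fit of its own line without the block. Of all genes, those fits called 0.0% in CASK KO, 0.0204% in SAP97 KO and 0.0% in MDX mice. The median log2 fold change of the 13 was -0.03 in CASK KO, 0.08 in SAP97 KO and 0.02 in MDX mice, against 0.01, 0.03 and -0.01 over all genes. In the edgeR model of the 6 groups, Dmd was called among the groups (adjusted p = 1.54e-07). It was also called there for the differences of effects between CASK KO and MDX (5.61e-07) and between CASK KO and SAP97 KO (3.16e-05), but not between SAP97 KO and MDX (0.877). Dmd and Sntb1, which encodes beta-1-syntrophin, had the smallest p in every line. Dmd was at 46.5 ± 4.51 CPM in CASK controls and 171 ± 28.7 CPM in CASK KO (log2 fold change 1.90, SE 0.18). CASK controls had the lowest mean of the 6 groups, below MDX mice (102 ± 24.2 CPM). CASK KO was also below wild type MDX controls (293 ± 35.7 CPM) and SAP97 controls. The edgeR adjusted p of Dmd in CASK KO was 0.0848. With the replicate block, a pairing taken from these data, it was 0.00551, which passes, as DESeq2 does (1.02e-16). In SAP97 KO Dmd was at 183 ± 15.3 against 339 ± 49.4 CPM in controls (-0.86, SE 0.16, edgeR adjusted p = 0.253, DESeq2 8.38e-05). Sntb1 had log2 fold changes of -1.14 (SE 0.25), 2.37 (SE 0.49) and 0.60 (SE 0.30) in CASK KO, SAP97 KO and MDX mice (edgeR adjusted p = 0.237, 0.319 and 1.00).

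Glycerol and triglyceride handling, the setting of AQP7, was read from 17 genes found in the tables, all tested. By edgeR none was called in any line, where 0.0%, 0.0204% and 0.0% of all genes were called in CASK KO, SAP97 KO and MDX mice. In CASK KO 0 of 17 had an unadjusted p under 0.05, where 8.84% of all genes did. Gk, which encodes the glycerol kinase that makes glycerol usable, was at 50.4 ± 1.89 CPM in CASK controls and 40.6 ± 3.21 CPM in CASK KO (log2 fold change -0.29, SE 0.13, edgeR adjusted p = 0.598). Plin5, a coat protein of lipid droplets, had 0.42 (SE 0.25) in CASK KO and -0.26 (SE 0.16) in SAP97 KO. Dgat2, an enzyme of triglyceride synthesis, had -0.22 (SE 0.15) in SAP97 KO. In MDX mice Lipe, the hormone-sensitive lipase, had 0.51 (SE 0.20, unadjusted p = 0.0299) and Agpat2, an acyltransferase, -0.43 (SE 0.25).

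Osmolyte and volume regulation was read from 20 genes, of which 19, 18 and 19 were tested in CASK KO, SAP97 KO and MDX mice. By edgeR none was called, where 0.0%, 0.0204% and 0.0% of all genes were. An unadjusted p under 0.05 was reached by 0 of 19, 5 of 18 (4 of them higher) and 3 of 19. The shares over all genes were 8.84%, 7.97% and 2.72%. The list was chosen with earlier results of these data known, so nothing is read from these counts. Slc6a6, the taurine transporter, was at 43.4 ± 2.53 CPM in SAP97 controls and 69.1 ± 21.2 CPM in SAP97 KO (log2 fold change 0.71, SE 0.20, edgeR adjusted p = 0.537). Slc12a7, a potassium chloride cotransporter, had 0.48 (SE 0.17, edgeR adjusted p = 0.610) in the same mice. In MDX mice Sgk1, a kinase induced by osmotic stress and by steroid hormones, was at 44.6 ± 4.03 against 29.4 ± 5.71 CPM (0.60, SE 0.16, edgeR adjusted p = 0.925). Stk39, a kinase that regulates cation chloride cotransporters, had 0.37 (SE 0.13, edgeR adjusted p = 1.00). Lrrc8a, the core subunit of the volume-regulated anion channel, had 0.43 (SE 0.22) in CASK KO, and Slc12a4, another potassium chloride cotransporter, -0.26 (SE 0.15).

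Hydrogen peroxide, which AQP8 can pass, is made and removed by the 18 genes of the last list, of which 18, 17 and 18 were tested. By edgeR none was called, where 0.0%, 0.0204% and 0.0% of all genes were called in CASK KO, SAP97 KO and MDX mice. An unadjusted p under 0.05 was reached by 2 of 18, 3 of 17 and 0 of 18. The shares over all genes were 8.84%, 7.97% and 2.72%. Nothing is read from these counts, since the list was chosen with earlier results of these data known. Gpx3, the secreted glutathione peroxidase, was at 87.6 ± 26.4 CPM in CASK controls and 48.9 ± 5.28 CPM in CASK KO (log2 fold change -0.82, SE 0.22, edgeR adjusted p = 0.333). It was at 37.2 ± 8.98 CPM in SAP97 controls and 68.0 ± 27.6 CPM in SAP97 KO (0.90, SE 0.27, edgeR adjusted p = 0.597). In MDX mice it had a log2 fold change of -0.58 (SE 0.41, edgeR adjusted p = 1.00). Gpx1, the cytosolic glutathione peroxidase, had -0.59 (SE 0.23) in CASK KO, Prdx5, a peroxiredoxin, -0.35 (SE 0.15) in SAP97 KO, and Gpx4, which reduces lipid peroxides, -0.52 (SE 0.35) in MDX mice.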

How the data were processed

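Per the labels and the methods, the authors removed ribosomal RNA, aligned read pairs to GRCm38 and counted them per gene; DESeq2 1.10.1, HTSeq 0.6.1, TopHat2 2.0.13, Bowtie2 2.2.1 and FastQC 0.11.2 are listed in the processing notes of the submitters. The deposited counts are whole numbers without scaling. The deposited TPM were computed by the authors from counts and summed exon length in base pairs. The deposited fold changes and p-values of the authors' comparisons were not used, nor were 27 other columns of single libraries. The labels mention poly-A selection for wild type samples, where the methods give ribosomal depletion for all.

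Counts came from the 3 comparison tables, since 4 columns of the table of all libraries are shifted by identifier. The members' counts agreed between the tables within 1 count for 105 of 105 values. MDX replicate 1, a shallow library, was left out, as in the study. TPM were computed from the counts and the deposited lengths. R 4.3.3, edgeR 4.0.16 (filterByExpr, TMM, quasi-likelihood F test, 2-sided, Benjamini-Hochberg over all genes tested, called at an adjusted p of 0.01) and DESeq2 1.42.0 were used. Each SE was obtained by dividing the absolute log2 fold change by the root of the F statistic. Tests over the 6 groups and the TMM factors of all 21 libraries drew on the 45405 genes whose counts agreed between annotation releases within a ratio of 1.1. Printed CPM used these factors and the library totals, but were computed for all 46813 genes in the 3 comparison tables, without that limit. Relations used 100000 permutations of libraries within groups. Plots were drawn with matplotlib 3.10.9. The fits were tested on simulated data.

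In the CASK line, same-numbered libraries deviated together (correlations of 0.45, 0.23 and 0.22), so the numbers were taken as pairs from the data. The labels do not give such pairs. The members and lists were chosen with earlier results of these data known. Named genes were the members, Cask, Dlg1 and Dmd, all called genes of a pathway list or otherwise its 2 smallest p per comparison, and the 3 genes most like each of Aqp1, Aqp4, Aqp7 and Aqp8 with a mean of at least 1 CPM. The atrial markers and the neighbours of Aqp8 were named after their values were seen. Gene coordinates came from GENCODE vM21, and upstream sequences from RefSeq (GRCm38.p6; 4 of the 5 members shown or searched). The alternatives were DESeq2 size factors, no filter, DESeq2, the replicate block, 1 model of 6 groups, leaving out each library, and leaving out the backcrossed mice, alone or with the oldest MDX mouse, and TPM in place of CPM. Whether replicate mice share litters or days is not given in the labels, so p-values measure the spread between these mice.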

Additional observations from a re-analysis of the deposited data

Results flagged for a closer look

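For Aqp8 in CPM, all 3 CASK KO mice lay below their controls, at a ratio of means of 0.496, and all 3 SAP97 KO mice above theirs, at a ratio of 1.72. The opposite direction in every mouse of both lines drew attention to it, though 7.89% and 6.44% of all genes separated in these directions. These shares are for each line alone, and the share of genes with both was not computed. Nothing is read from this pattern for Aqp8, whose level served to choose it. In TPM the ratios were 0.486 and 1.82, but there CASK KO replicate 1 (12.5 TPM) lay above CASK control replicate 3 (11.3 TPM), so the separation in the CASK line holds in CPM alone of the 2 units. The difference between both effects was not tested, since Aqp8 was picked for its level between groups. SAP97 KO mice differ from their controls in Cre, while CASK KO mice and their controls both carry it. In 10 checks of the 5 members in MDX and MDX control mice, no single mouse stood apart by Dixon's criterion.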

How the results depend on the processing

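Genes called at an adjusted p of 0.01 depended most on the filter and the tool. Without the filter on low counts, 182 genes were called in CASK KO, 134 in SAP97 KO and 6 in MDX mice, against 0, 3 and 0 with it, and DESeq2 called 116, 46 and 19. In 1 model of 6 groups the counts were 9, 6 and 7. Among the 6 groups 1195 genes were called without the filter and 973 by DESeq2, against 283. Differences between effects were called for 136 and 153 genes (no filter, DESeq2) against 52 for CASK KO and SAP97 KO, for 86 and 49 against 12 for CASK KO and MDX, and for 28 and 13 against 1 for SAP97 KO and MDX. Leaving out 1 library gave 0 genes in CASK KO and MDX mice, 0 to 2 in SAP97 KO, 152 to 337 among groups, and 20 to 73, 6 to 24 and 1 to 2 for the 3 differences of effects. The cause was not tested.

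With the replicate block, 11 genes were called in CASK KO, 0 in SAP97 KO and 0 in MDX mice. Same-numbered libraries correlated at 0.01, 0.10 and -0.35 in the SAP97 line and at -0.07, 0.07, 0.43 and 0.66 in the MDX line, so the numbers were not taken as pairs there; replicate 5 of both MDX groups, which gave 0.66, shares a backcrossed line. The block changed no call of a tested member.

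Of 536 alternative values of the 4 tested members, 1 passed the threshold: Aqp1 among the 6 groups without the filter, with F = 5.03. Leaving out 1 library kept the direction and call of 489 member values, reversed 12 and moved 3. The log2 fold change then ran from -0.29 to 0.15 for Aqp1 and from -0.13 to 0.57 for Aqp4 in CASK KO, and for Aqp7 from -0.15 to 0.66 in SAP97 KO and from -0.11 to 0.19 in MDX mice. Differences of effects ran from -0.059 to 0.39 (Aqp1) and -0.46 to 0.015 (Aqp11) for CASK KO and SAP97 KO, and from -0.28 to 0.54 (Aqp7) for SAP97 KO and MDX. For Aqp8 the ranges were -1.14 to -0.91 in CASK KO, 0.38 to 1.02 in SAP97 KO and -1.66 to -1.16 in MDX mice. Aqp7 in MDX mice was at -0.045 without both backcrossed mice and at -0.32 without the oldest MDX mouse as well, a setting chosen after seeing the data. By CPM, which takes no account of length, Aqp8 ranked 4 of 5 in CASK KO, SAP97 controls and MDX controls and 3 of 5 in SAP97 KO. Without centring on groups, 3 relations passed by Pearson and 2 by Spearman, against 0 and 1. In TPM without TMM scaling, added after seeing the data, all 15 ratios of knockout to control means kept their direction, but Aqp8 and Aqp7 no longer separated in CASK KO. Counts were lowest for Aqp11 (13 to 61 a library) and for Aqp8 in MDX mice (14 to 59), and counting error is largest there.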

Other observations

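MDX replicate 1, the library left out of every comparison, held 6026686 counts in genes. It had 148 counts of Aqp1, 2 of Aqp4, 13 of Aqp7, 13 of Aqp8 and 0 of Aqp11. As CPM without TMM scaling, this was 24.6 for Aqp1, 0.332 for Aqp4, 2.16 for Aqp7 and 2.16 for Aqp8.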
